A study of Homo sapiens with 18 samples.

Results

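KG-1, an established human line from acute myeloid leukaemia, carries a fusion of FGFR1OP2 with FGFR1, and TOP2A and TOP2B peaks were counted around both partner genes. The 2 genes were taken as given, FGFR1 at chr8:38268656-38326352 and FGFR1OP2 at chr12:27091305-27119583 of hg19. Peaks were counted in 500 kb bins, 21 of them on chromosome 8 from 33 to 43.5 Mb and 20 on chromosome 12 from 22 to 32 Mb. These 41 bins are part of 6084 bins on chromosomes 1 to 22 and X, of which 5733 held enough peaks to be tested. The etoposide experiment gave 8 libraries, 2 for each of TOP2A and TOP2B in cells kept for 1 h with methanol, the vehicle, and 2 for each in cells given 100 µM etoposide for 1 h. In the mitoxantrone experiment each antibody had 1 library of untreated cells and 1 of cells given mitoxantrone at 0.5 µM for 1 h, which makes 4 libraries. All libraries came from KG-1 and so from 1 genotype, with no line that lacks the fusion among the samples. Immunoprecipitations with the same antibody were pooled before each library was made.

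FGFR1 encodes a receptor tyrosine kinase for fibroblast growth factors and is read from the minus strand of the short arm of chromosome 8, so that its 3′ part, which encodes the kinase domain, lies at the lower coordinates. FGFR1OP2 encodes a coiled-coil protein and is read from the plus strand of the short arm of chromosome 12. Fusions that join the start of a partner such as FGFR1OP2 to the kinase part of FGFR1 are known from myeloid and lymphoid neoplasms with eosinophilia, where the partner's coiled coil brings kinases together and keeps them active without ligand. Type II topoisomerases cut both strands of DNA, pass another duplex through and reseal the cut. TOP2A is the form of dividing cells and TOP2B is also made in resting cells. Etoposide and mitoxantrone hold either enzyme on the cut DNA.

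The 8 lists of the etoposide experiment held between 35932 and 294749 MACS peaks each, or a mean of 6.27 to 51.4 peaks per 500 kb bin. TOP2A etoposide replicate 1 was the shortest list and TOP2B vehicle replicate 2 the longest. Both etoposide replicate 1 lists stood apart, with 41.2% and 42.0% of peaks wider than the list's smallest width against 19.0% to 30.0% in the other lists, and median scores of 84.5 and 162 against 446 to 1289. Without this pair the steps described below were 0.71 at FGFR1 and −0.73 at FGFR1OP2 over 4.5 Mb, and −0.82 and −1.60 over 1 Mb, and all 4 kept their calls by limma. Relative density is the number of peaks in a bin divided by the mean per bin of the same library, so that 1 is the library's own average. The window around FGFR1 held 267 to 1967 peaks per library and that around FGFR1OP2 81 to 758. Peak lists do not hold the amount of DNA at a locus, and inputs are not analysed here, so occupancy per copy and the number of copies cannot be told apart in any value below.

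The upstream sequence of FGFR1OP2, which in a fusion of this kind stays joined to the FGFR1 kinase part, is shown as background. It is the 250 bases before the gene's start at chr12:26938220-26938469 of GRCh38.p14, plus strand, from RefSeq, with each CTCGCGAG, a palindrome chosen after the sequence was seen, in capitals:
FGFR1OP2 promoter: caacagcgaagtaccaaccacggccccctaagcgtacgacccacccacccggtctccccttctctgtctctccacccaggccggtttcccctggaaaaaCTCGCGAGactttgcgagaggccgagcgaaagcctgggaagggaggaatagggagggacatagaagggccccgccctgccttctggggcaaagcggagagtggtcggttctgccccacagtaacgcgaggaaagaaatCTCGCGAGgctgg
CTCGCGAG reads the same on both strands and occurs 2 times here, while 307 of 35116 RefSeq promoters (0.874%) hold it in the same 250 bases. G and C make up 62% of the sequence. Of the 12 libraries, 1, TOP2A vehicle replicate 1, had a MACS peak and a SISSRs site in the 250 bases before the FGFR1OP2 start on hg19. Positions were not converted between the builds, so these 250 bases may not be exactly those printed.

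Around FGFR1, peak density was low at the lower end of the window, rose about 2 Mb below the gene and stayed high to the upper end. From 33 to 36 Mb the relative density of the 6 bins was 0.535 ± 0.066 (SD, n = 8 libraries), and single libraries ran from 0.425 to 0.624. From 36.5 to 38 Mb, next to the gene on its 3′ side, it was 2.90 ± 0.23 (SD, n = 8), with libraries from 2.55 to 3.19. From 38.5 to 43.5 Mb, on the 5′ side, it was 2.41 ± 0.11 (SD, n = 8), with libraries from 2.28 to 2.58. The limits of these segments were drawn after the profile was seen, and they leave out the bin from 36 to 36.5 Mb. That no library of the low segment reached any library of the high segments is thus not a test. Of the 21 bins, 15 were above and 6 below the library mean by limma with Benjamini-Hochberg adjustment, where 24.1% of all 5733 bins were called, 8.11% above and 16.0% below. The lowest bin was 33.5 to 34 Mb, at 0.421 ± 0.143 (SD, n = 8), and the highest was 37.5 to 38 Mb, at 3.29 ± 0.36 (SD, n = 8), directly below the bin that holds FGFR1.

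The mean of the bin that holds FGFR1, 38 to 38.5 Mb, was below those of both neighbours. Its relative density in the TOP2A libraries, with replicate 1 given first here and below, was 1.98 and 2.27 under vehicle. Under etoposide it was 2.55 and 2.41. For TOP2B it was 1.70 and 2.10 with vehicle and 1.97 and 2.18 with etoposide. All 8 libraries were thus well above their own mean bin, and the treatments overlapped for TOP2B but not for TOP2A. The mean was 2.15 ± 0.27 (SD, n = 8). Of the 5733 bins, 186 (3.24%) were at or above it, and the median over all bins was 0.981. The bin below it, at 3.29, was higher in every library and the bin above it, 38.5 to 39 Mb, was at 2.37 ± 0.64 (SD, n = 8). That bin was lower than the FGFR1 bin in TOP2A etoposide replicate 2 (1.84) and TOP2B etoposide replicate 2 (1.79) and higher in the other 6 libraries.

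High density was also found on the long arm of chromosome 8. From 50 to 140 Mb it was 2.33 ± 0.05 (SD, n = 8), close to the 2.41 found above FGFR1. From the start of chromosome 8 to 33 Mb it was 0.972 ± 0.035 (SD, n = 8). The 3 Mb from 33 to 36 Mb were therefore below the 33 Mb before them and below the library mean in all 8 libraries.

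**Figure D1:**
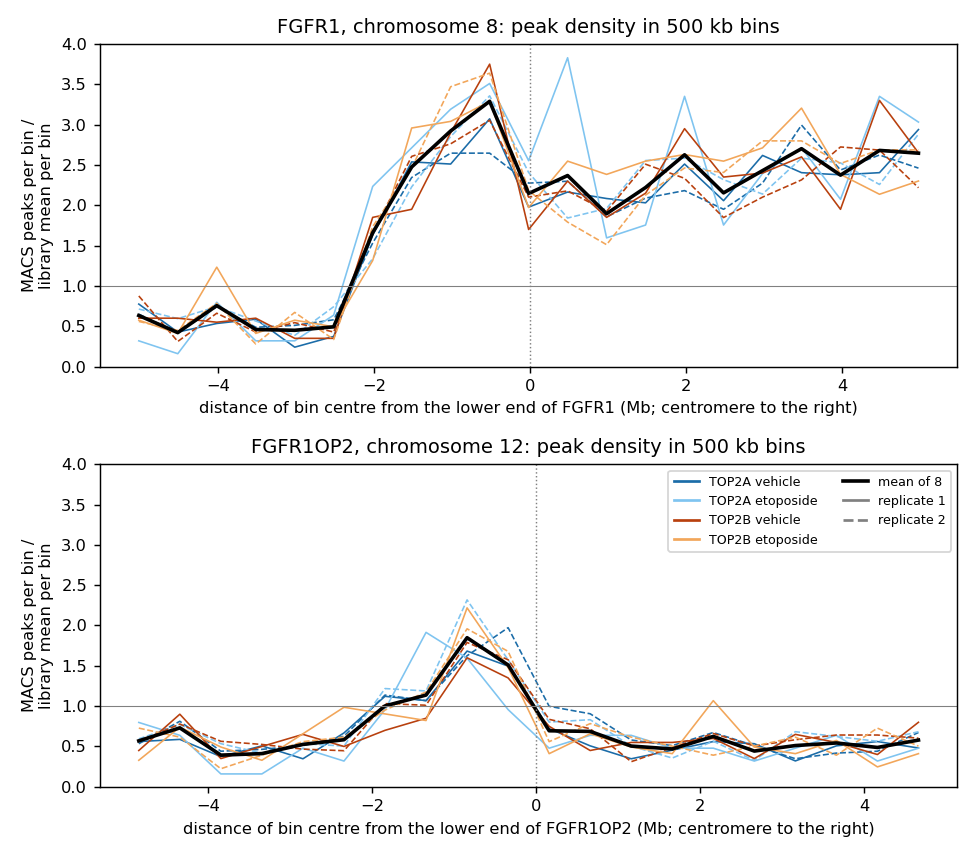
MACS peak density per 500 kb bin divided by the library's mean bin (y axis) against the distance of the bin's centre from the gene's lower end in Mb (x axis), for 8 libraries (thin lines, solid for replicate 1, dashed for replicate 2) and their mean (black). Around FGFR1 the mean goes from 0.49 at 35.5 Mb to 2.48 at 36.5 Mb, and around FGFR1OP2 from 1.51 in the bin below the gene to 0.69 in the gene's own bin.

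Around FGFR1OP2 the profile was a hill whose upper side lay at the gene. From 22 to 25 Mb the relative density was 0.536 ± 0.051 (SD, n = 8). From 25 to 26 Mb it was 1.07 ± 0.20, from 26 to 27 Mb 1.68 ± 0.22, and from 27.5 to 32 Mb 0.539 ± 0.036 (SD, n = 8 each). The 26 to 27 Mb segment, directly below the gene, ran from 1.28 to 1.95 over the libraries. The segment above the gene ran from 0.475 to 0.573. These limits too were drawn after the profile was seen, so the lack of overlap is not a test. Of the 20 bins, 2 were called above the library mean (26 to 26.5 Mb at 1.85 ± 0.29 and 26.5 to 27 Mb at 1.51 ± 0.29) and 16 below. The 2 bins from 25 to 26 Mb were not called. Over all 5733 bins, 8.11% were called above and 16.0% below, so 2 of 20 above is near the share of all bins. The lowest bin was 23 to 23.5 Mb, at 0.393 ± 0.145 (SD, n = 8). Farther away on the same chromosome, density was 1.09 ± 0.07 from the start to 10 Mb and 0.999 ± 0.021 from 38 to 48 Mb (SD, n = 8 each).

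The bin that holds FGFR1OP2, 27 to 27.5 Mb, was below the library mean. Its relative density for TOP2A was 0.721 and 0.998 with vehicle and 0.479 and 0.802 with etoposide. For TOP2B it was 0.750 and 0.836 with vehicle and 0.411 and 0.560 with etoposide. All 8 libraries were below 1, the TOP2B groups did not overlap and the TOP2A groups did. The mean was 0.695 ± 0.197 (SD, n = 8), and 86.0% of all bins were at or above it. The bin above it, 27.5 to 28 Mb, was at 0.687 ± 0.156 (SD, n = 8). SISSRs sites gave 0.705 in the FGFR1OP2 bin and 2.42 in the FGFR1 bin as means of the 8 libraries. In the segments around FGFR1 they gave 0.511 ± 0.071, 3.02 ± 0.34 and 2.45 ± 0.15 from 33 to 36, 36.5 to 38 and 38.5 to 43.5 Mb (SD, n = 8 each), the same order as the MACS peaks. Around FGFR1OP2 they gave 0.534 ± 0.042 from 22 to 25 Mb, 1.69 ± 0.18 from 26 to 27 Mb and 0.544 ± 0.035 from 27.5 to 32 Mb (SD, n = 8 each).

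The rule asked for a step in density at each gene. Over 4.5 Mb on each side the 2 sides differed for both genes, in opposite directions, but the rise found for FGFR1 did not lie at the gene. The step is the log2 of the mean of the 9 bins above the gene's bin over the mean of the 9 bins below it. At FGFR1 it was 0.79 and 0.79 in TOP2A vehicle, 0.69 and 0.69 in TOP2A etoposide, 0.75 and 0.72 in TOP2B vehicle and 0.74 and 0.60 in TOP2B etoposide. The upper side of FGFR1 was thus denser in 8 of 8 libraries, 1.65-fold on average (log2 0.72, SE 0.06, adjusted p = 3.55e-07, limma), and log2 1.63 with medians of the bins in place of means. At FGFR1OP2 it was −0.86 and −0.76 in TOP2A vehicle, −0.61 and −0.80 in TOP2A etoposide, −0.57 and −0.66 in TOP2B vehicle and −0.81 and −0.67 in TOP2B etoposide. The upper side of FGFR1OP2 was less dense in 8 of 8 libraries, by 1.64-fold on average (log2 −0.72, SE 0.06, adjusted p = 3.01e-07, limma), and log2 −0.44 with medians.

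Of 5087 tested bins, 12.8% were called in the direction of FGFR1 and 13.6% in that of FGFR1OP2 (26.4% in all). This share was smaller without TOP2B vehicle replicate 1. With lists of equal length it was 0.104% of a smaller set of bins, because many bins then held too few peaks. Neither gene could be tested in that setting. In the 8 whole lists, 53 bins (1.04%) had a rise at least as large as FGFR1, and 33 (0.649%) a fall at least as large as FGFR1OP2. The rise assigned to FGFR1 did not lie at the gene, because its 9 lower bins take in both the low bins from 33.5 to 36 Mb and the high bins from 36 to 38 Mb. With 4 bins on each side the FGFR1 value turned to −0.18 (adjusted p = 0.130, limma), while that of FGFR1OP2 was −1.23 and kept its call.

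A step measured over 1 Mb on each side of the gene itself, and for comparison at every 100 kb of the genome, placed the changes more closely. This measure was chosen after the data were seen. At FGFR1OP2 the log2 step was −2.04 and −1.40 in TOP2A vehicle, −1.05 and −1.56 in TOP2A etoposide, −1.92 and −1.49 in TOP2B vehicle and −1.80 and −1.40 in TOP2B etoposide. Density above FGFR1OP2 was lower in 8 of 8 libraries, by 2.99-fold on average (log2 −1.58, SE 0.16, adjusted p = 6.26e-05, limma). Of 28105 positions tested, 25 (0.089%) fell by at least as much, and 0.918% were called as falls (2.09% called in all, in 134 runs on 23 chromosomes). On the 100 kb grid of the chromosome 12 window, the largest fall was at 27.1 Mb, 0.0087 Mb above the lower end of FGFR1OP2 (log2 −1.53, SE 0.16, adjusted p = 7.87e-05, limma). The largest rise of that window was at 25.3 Mb, at −1.79 Mb from the gene (log2 1.09, SE 0.15, adjusted p = 7.81e-04, limma).

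At FGFR1 the step over 1 Mb was also a fall, opposite in sign to the step over 4.5 Mb. It was −0.69 and −0.53 in TOP2A vehicle, −0.44 and −0.79 in TOP2A etoposide, −0.69 and −0.60 in TOP2B vehicle and −0.58 and −1.22 in TOP2B etoposide. Density on the 5′ side of FGFR1 was lower in 8 of 8 libraries, by 1.62-fold on average (log2 −0.69, SE 0.14, adjusted p = 0.0133, limma), and 211 of 28105 positions (0.751%) fell by at least as much. This call was lost with MACS scores of at least 100 (−0.61, adjusted p = 0.402, limma) and with 500 kb on each side (−0.68, adjusted p = 0.374, limma), and with 2 Mb on each side the step was −0.41 (adjusted p = 0.0156, limma). It was also lost with lists of equal length (−0.21, adjusted p = 0.953, limma), with either antibody alone, and without any 1 of 5 libraries (both TOP2A vehicle, both TOP2B vehicle, TOP2B etoposide replicate 2; adjusted p up to 0.153, limma). The fall at FGFR1OP2 lost its call with TOP2A alone (−1.51, adjusted p = 0.0941, limma) and kept its direction and its call in the other alternatives tried. In every library the fall was larger at FGFR1OP2 than at FGFR1, a difference that was not tested.

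**Figure D2:**
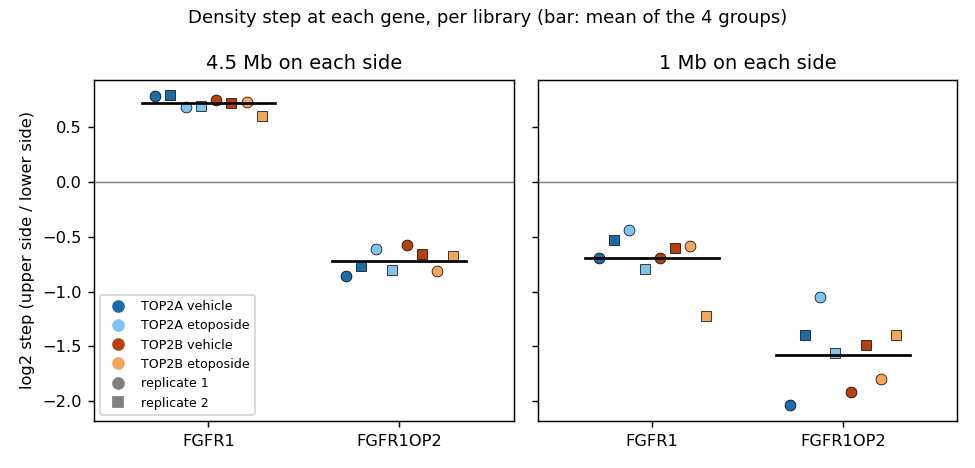
Log2 of peak density above over below each gene (y axis) in each of the 8 libraries (circles replicate 1, squares replicate 2, colours antibody and treatment), with 4.5 Mb (left) and 1 Mb (right) on each side, and the mean of the 4 groups as a bar. FGFR1 is at 0.72 over 4.5 Mb and −0.69 over 1 Mb, while FGFR1OP2 is below 0 in all 8 libraries on both scales.

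The largest local rise of the chromosome 8 window lay well below FGFR1. On the 100 kb grid it was at 36.1 Mb, at −2.17 Mb from the gene, where density rose 4.94-fold (log2 2.31, SE 0.18, adjusted p = 1.55e-05, limma), with libraries from 1.84 to 2.94. A change point, the position that best splits the peaks of 1 library into 2 constant densities, was then sought from 35.3 to 37.3 Mb, a range chosen around this rise after it was seen and without FGFR1. It fell between 36093443 and 36326804 in the 8 libraries, 1.94 to 2.18 Mb below FGFR1. Density was 3.45 to 6.64 times higher above it than below it. The change point thus describes where the rise lay within that range. The largest fall of the window was at its upper end, 43.5 Mb (log2 −1.51, SE 0.21, adjusted p = 6.67e-04, limma), with its upper side outside the window. Stretches without reference sequence were not masked, and how much sequence that side holds was not measured. Whether density itself fell there is therefore not shown. The protein-coding neighbours of FGFR1 in RefSeq order are DDHD2, PLPP5, NSD3 and LETM2 below it and TACC1, PLEKHA2, HTRA4 and TM2D2 above it. Those of FGFR1OP2 are BHLHE41, SSPN, ITPR2 and INTS13 below it and TM7SF3, MED21, C12orf71 and STK38L above it. None of these has a value here because the gene table is on another build.

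In bins of 100 kb the falls at the 2 genes differed in shape. At FGFR1OP2, relative density was 1.58 ± 0.39, 1.44 ± 0.69 and 1.44 ± 0.89 in the 3 bins from 26.8 to 27.1 Mb (SD, n = 8 each). It was 0.484 ± 0.330, 0.632 ± 0.501 and 0.342 ± 0.276 in the 3 bins from 27.1 to 27.4 Mb (SD, n = 8 each). The gene crosses the limit between these sets, and density stayed low beyond it. At FGFR1 it was 3.65 ± 0.97 at 38.1 to 38.2 Mb and 2.58 ± 0.66 at 38.2 to 38.3 Mb, which holds the 3′ part of the gene (SD, n = 8 each). It then was 0.568 ± 0.457 at 38.3 to 38.4 Mb, which holds the 5′ part and the sequence above it, and 1.56 ± 0.50 at 38.4 to 38.5 Mb (SD, n = 8 each). The low value at FGFR1 was thus a trough of 1 bin, with density above the library mean on both sides, and the highest library in the trough (1.17) was below the lowest library in the bin under it (2.00) but above the lowest library in the bin over it (1.07).

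**Figure D3:**
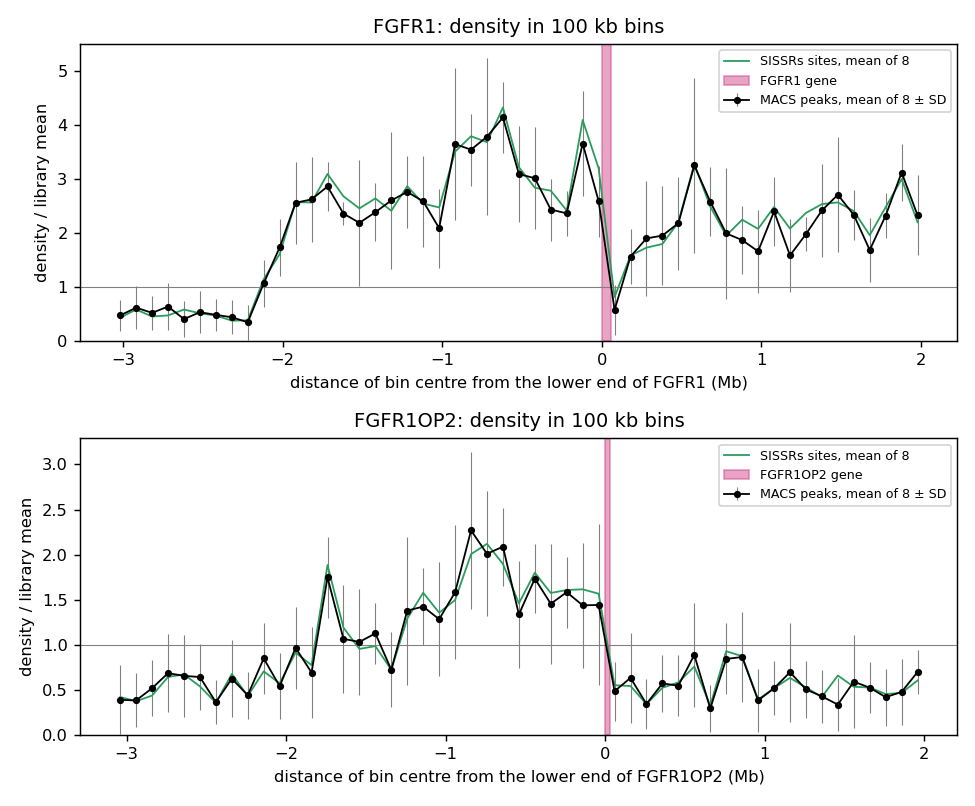
Peak density per 100 kb bin divided by the library mean (y axis) against the distance of the bin's centre from the gene's lower end in Mb (x axis), as the mean ± SD of 8 libraries for MACS peaks (black) and the mean for SISSRs sites (green), with the gene shaded. Density at FGFR1OP2 goes from 1.44 to 0.48 across the gene and stays low, while at FGFR1 it goes from 2.58 to 0.57 and returns to 1.56 in the next bin.

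Change points within 1 Mb of each gene were tighter at FGFR1OP2. Counted in kb from the gene's lower end, they were 11.6 and 22.1 in TOP2A vehicle, −250.9 and 18.6 in TOP2A etoposide, 14.6 and 10.3 in TOP2B vehicle and −138.3 and −105.7 in TOP2B etoposide. In 5 of 8 libraries the change point thus lay inside the 28.3 kb gene, all 4 vehicle libraries among them. It lay below the gene in 3 of the 4 etoposide libraries. Those 3 had the shortest of the 8 lists, with 35932, 69773 and 102432 MACS peaks. List length and treatment therefore cannot be told apart here. TOP2A etoposide replicate 1, the farthest, had 22 peaks in this window. Its interval of near-equal likelihood (within 2 log-likelihood units) ran from −690.2 to −250.9 kb and did not reach the gene. In both TOP2B etoposide libraries the interval reached the gene, ending at 0.173 kb in replicate 1 and at 21.2 kb in replicate 2. With 500 kb on each side the interval of TOP2B etoposide replicate 1 ran from −141.8 to −92.8 kb and did not reach the gene, 5 of the 7 libraries with enough peaks were inside it, and the median was 11.6 kb. The pooled peaks of all 8 libraries changed density at 27113413, 22.1 kb into the gene, from the lower to the upper side by 3.02-fold, with single libraries at 2.65-fold to 4.27-fold. SISSRs sites of the same libraries gave 5 of 8 libraries inside FGFR1OP2 and a median of 11.0 kb, as the MACS peaks did.

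At FGFR1 the change points were −464.7 and 17.0 kb in TOP2A vehicle, 734.4 and −59.1 in TOP2A etoposide, −324.8 and −11.0 in TOP2B vehicle and −517.6 and −8.2 in TOP2B etoposide. Only TOP2A vehicle replicate 2 was inside the 57.7 kb gene, and 4 of 8 were within 100 kb of its lower end. The pooled peaks changed at 38247280, at −21.4 kb, by 1.66-fold, with libraries from 1.53-fold to 2.47-fold. With 500 kb on each side, 7 of 8 libraries were within 100 kb, and 2 of them inside the gene. A change point is placed at a peak of the library, so its precision is limited by the spacing of the peaks.

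**Figure D4:**
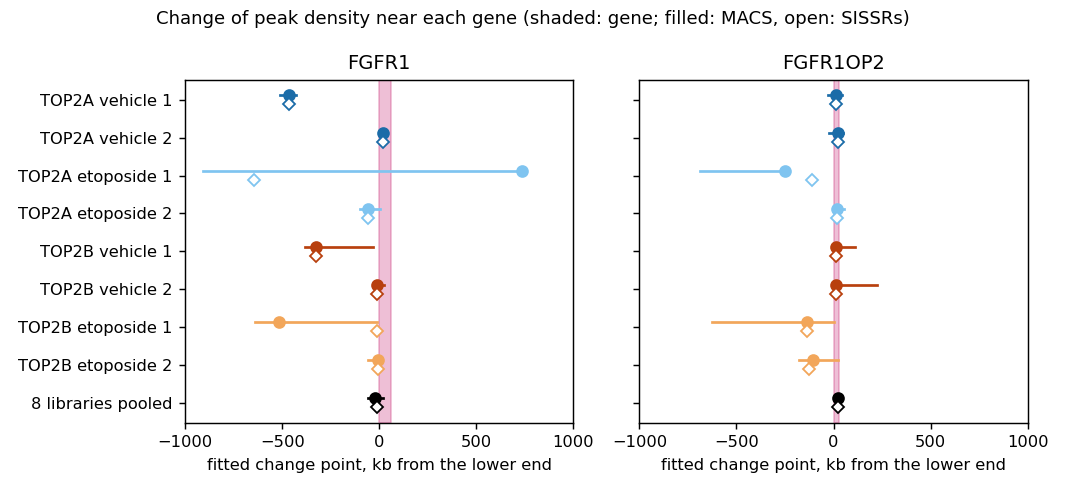
Fitted change of peak density in kb from the gene's lower end (x axis) for each library and for all 8 pooled (rows), from MACS peaks (filled, with the interval within 2 log-likelihood units as a line) and SISSRs sites (open), with the gene shaded. At FGFR1OP2 5 of 8 MACS points lie inside the gene, and at FGFR1 they run from −517.6 to 734.4 kb.

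No difference between treatments or antibodies in these profiles passed the test. No bin of either window was called between etoposide and vehicle for TOP2A or for TOP2B, or between the antibodies. This was also so for all 5733 bins (0% called for each comparison by limma), of which 212, 261 and 202 had an unadjusted p under 0.05, none of them in either window. In the FGFR1 bin, etoposide minus vehicle was log2 0.19 for TOP2A (95% interval −0.25 to 0.64) and 0.12 for TOP2B (−0.33 to 0.57). In the FGFR1OP2 bin it was −0.40 for TOP2A (−1.25 to 0.45) and −0.68 for TOP2B (−1.53 to 0.18), and these intervals include a change of more than 2-fold. TOP2B minus TOP2A was −0.20 (−0.52 to 0.11) in the FGFR1 bin and −0.23 (−0.84 to 0.37) in the FGFR1OP2 bin.

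The steps themselves did not pass the test for a difference either, and no position of the genome did (0% called). Over 4.5 Mb the step with etoposide minus that with vehicle was −0.08 at FGFR1 (95% interval −0.33 to 0.16) and −0.01 at FGFR1OP2 (−0.25 to 0.23). Over 1 Mb it was −0.13 at FGFR1 (−0.72 to 0.46) and 0.26 at FGFR1OP2 (−0.44 to 0.96). The FGFR1OP2 step over 1 Mb, −1.58, was larger than the bounds of its treatment difference, while the FGFR1 step, −0.69, was not. Between antibodies, TOP2B minus TOP2A over 1 Mb was −0.16 at FGFR1 (−0.75 to 0.43) and −0.14 at FGFR1OP2 (−0.84 to 0.56).

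Within the gene bodies peaks were few. FGFR1 overlapped 7 and 11 MACS peaks in TOP2A vehicle, 3 and 7 in TOP2A etoposide, 3 and 7 in TOP2B vehicle and none in either TOP2B etoposide library. FGFR1 thus held a peak in 6 of 8 libraries, and the 2 without one were the TOP2B etoposide pair, in which SISSRs listed no site either. At the density of its own bin, FGFR1 would have held 2.77 and 4.50 peaks in those 2 libraries, and a count of 0 allows up to 3, for counting error only. Per 10000 peaks of the list, with both antibodies together, FGFR1 held 0.299 ± 0.396 with etoposide and 0.318 ± 0.093 with vehicle (SD, n = 4 each; two-sided exact permutation p = 1). For TOP2A the values were 0.326 and 0.445 with vehicle and 0.835 and 0.363 with etoposide. For TOP2B they were 0.262 and 0.237 with vehicle and 0 and 0 with etoposide. The test mixed these, so its small difference does not show that neither antibody changed. The etoposide mean rested on TOP2A etoposide replicate 1, with 3 peaks or 0.835 per 10000, and without it the difference moved from −0.018 to −0.197 (exact permutation p = 0.229). TOP2B alone, with 2 libraries in each group, cannot pass a permutation test at the threshold.

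FGFR1OP2 overlapped 2 and 5 MACS peaks in TOP2A vehicle, 0 and 5 in TOP2A etoposide, 3 and 4 in TOP2B vehicle and 1 and 2 in TOP2B etoposide. Only the shortest list, TOP2A etoposide replicate 1, had no peak there, where 0.354 would be expected at its mean density and 0.170 at that of the gene's bin. Per 10000 peaks, with both antibodies together, FGFR1OP2 held 0.149 ± 0.110 with etoposide and 0.173 ± 0.074 with vehicle (SD, n = 4 each; two-sided exact permutation p = 0.743). The smallest p that 4 against 4 libraries allow is 0.0286. Relative to the library mean, peak density within the gene body was 1.53 ± 1.32 for FGFR1 and 1.64 ± 0.89 for FGFR1OP2 (SD, n = 8 each).

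More FGFR1 peaks lay in the 3′ part of the gene than in its 5′ part, a description without a test. Of 38 peaks pooled over the 8 libraries, 27 lay in the lower 28.8 kb, the 3′ part, and 11 in the upper 28.8 kb. TOP2A vehicle replicate 1 went the other way, with most of its 7 peaks in the 5′ part. The other libraries with peaks had more in the 3′ part, TOP2A etoposide replicate 2 only narrowly. The 22 peaks of FGFR1OP2 divided as 14 in the lower and 8 in the upper 14.1 kb. Between libraries, 8 pairs of peaks overlapped in FGFR1 and 2 in FGFR1OP2. How often peaks overlap between libraries over the whole lists was not measured, so these counts do not show recurrence particular to the genes. One site of FGFR1, about 2.0 kb from its lower end, was listed in TOP2A vehicle replicate 2 (chr8:38270696-38270823), TOP2B vehicle replicate 2 (chr8:38270754-38270877) and TOP2A etoposide replicate 2 (chr8:38270767-38270892). In FGFR1OP2 the shared peaks were chr12:27109693-27109820 and chr12:27109750-27110003 (TOP2A vehicle and etoposide, replicate 2) and chr12:27112384-27112507 and chr12:27112478-27112577 (TOP2B vehicle and etoposide, replicate 2). All 10 pairs but 1 were between replicate 2 libraries, and the exception was TOP2A vehicle replicate 2 with TOP2B vehicle replicate 1 at 14.9 kb in FGFR1. In every group the replicate 2 list was the longer one and held at least as many peaks in each gene. The authors' MACS scores of these peaks ranged from 55.3 to 3100 in FGFR1 and 70.7 to 3100 in FGFR1OP2. Their median percentile within their own lists was 44.3 for FGFR1 and 53.0 for FGFR1OP2. No exon or intron limits on hg19 were used here, so the peaks were not assigned to exons.

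**Figure D5:**
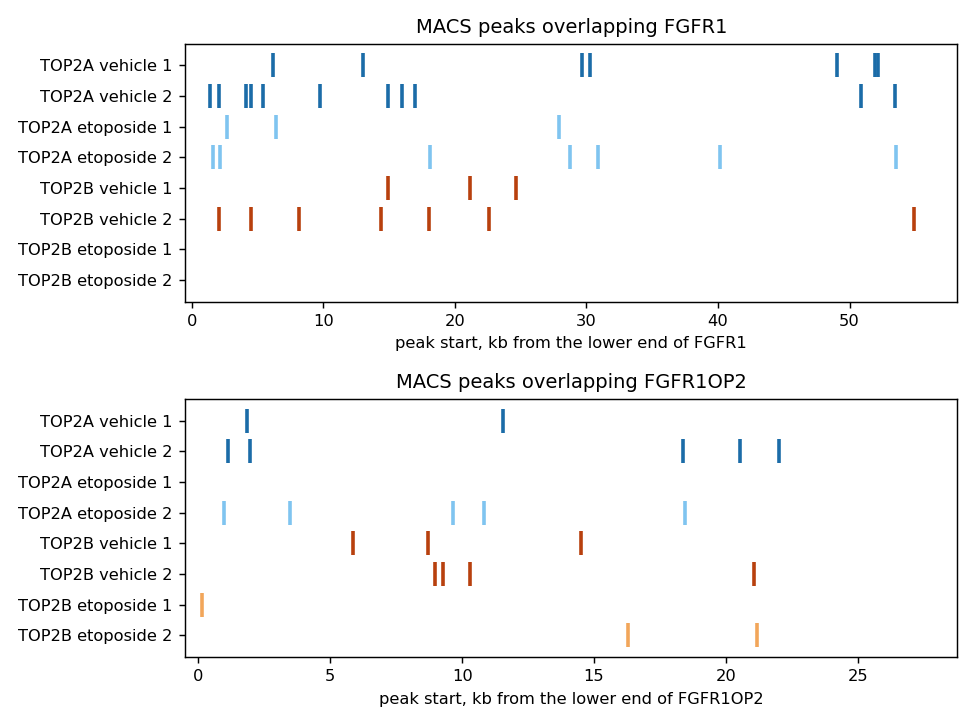
Start of each MACS peak that overlaps FGFR1 (top) or FGFR1OP2 (bottom), in kb from the gene's lower end (x axis), by library (rows). FGFR1 has 27 of 38 peaks in its lower 28.8 kb and no peak in either TOP2B etoposide library.

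Peak scores went the other way from peak density on chromosome 8. From 36.5 to 38 Mb, below FGFR1, the median MACS score of the segment was 0.758 times that of the whole list in the median library (0.691 to 1.16). From 38.5 to 43.5 Mb it was 0.836 times (0.808 to 1.00), and from 33 to 36 Mb, where peaks were sparse, it was 1.09 times (0.840 to 1.29). The dense segments thus had typical scores above those of the list in 1 and 0 of 8 libraries, and the sparse one in 7 of 8. On chromosome 12 the score ratio was 0.972 (0.787 to 1.26) from 26 to 27 Mb, below FGFR1OP2, and 1.07 (0.965 to 1.20) from 27.5 to 32 Mb. 

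The 4 libraries of the mitoxantrone experiment have no replicates, and only values are given. Their MACS peaks were wider, with median widths of 462 to 1126.5 bp against 98 to 128 bp in the etoposide experiment. Densities of the 2 experiments thus come from unlike lists. TOP2A without drug (109429 MACS peaks) had a relative density of 0.533 from 33 to 36 Mb, 1.12 from 36.5 to 38 Mb and 1.11 from 38.5 to 43.5 Mb around FGFR1. Its SISSRs sites gave 0.375, 6.85 and 5.47 for the same segments, so that the rise below FGFR1 was present in both lists and much larger in one. In the 8 libraries of the etoposide experiment the callers gave 2.90 and 3.02 for the middle segment. TOP2B without drug (9259 peaks) had 5, 4 and 20 MACS peaks and 2, 116 and 228 SISSRs sites in these segments. Around FGFR1OP2, TOP2A without drug had 1.28 from 26 to 27 Mb and 0.402 from 27.5 to 32 Mb with MACS, and 2.90 and 0.334 with SISSRs, the same order as in the etoposide experiment. With mitoxantrone, the whole chromosome 8 window held 32 TOP2A and 8 TOP2B peaks, and the chromosome 12 window 12 and 1. Within the genes, TOP2A without drug had 2 peaks in FGFR1 and 2 in FGFR1OP2, and the other 3 libraries had none.

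Similarity of bins over the 8 libraries was measured as the root mean square difference of log2 values. All bins of chromosomes 8 and 12 were left out, and the most similar of the other bins are listed. For the FGFR1 bin they were chr1:145000001-145500000, chr1:16500001-17000000 and chr15:20500001-21000000, which differed by 0.22 to 0.27. For the FGFR1OP2 bin they were chr1:238000001-238500000, chr16:61500001-62000000 and chr3:77500001-78000000, which differed by 0.19 to 0.21.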

How the data were processed

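Both genes, the windows and the measures were chosen with earlier results of these data known. Reads had been placed on hg19, with MACS 1.4, bedtools 2.26.0 and Bowtie2 2.2.5 as tools, per the submitters' processing notes. Per the labels' protocols, chromatin crosslinked with 1% formaldehyde for 10 min was sequenced with 50 bp reads. The authors deposited 1 MACS list per library, with a score for every peak. They also deposited 1 SISSRs list without a header, whose values look like a tag count, a ratio (fold) to background and a p-value for every site. In the deposited SISSRs files only the positions were used. The authors called each library separately, with caller settings and the use of input not given in the sources used here. Read totals are likewise not given, so the number of peaks sets the precision. Of 18 samples, the 6 inputs were not analysed here.

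Peaks were counted by their midpoint in 500 kb bins. Those that averaged 5 or more peaks were compared as log2 of peaks over the library mean, each with 0.5 peaks added, and steps as log2 ratios of mean densities. The 4.5 Mb step needed at least 7 usable bins on each side, and the 1 Mb step a mean of at least 10 peaks. Stretches without reference sequence were not masked for the 1 Mb step, so positions next to them may be among those called. In R 4.3.3, limma 3.58.1 with trend and robust settings fitted 4 groups of 2 libraries over all bins or positions, with Benjamini-Hochberg adjustment at 0.05. The mean of the groups was set against 0, and groups against each other. Gene bodies were compared with an exact permutation test, both antibodies together. Change points maximised a Poisson likelihood with at least 5 peaks on each side. Counting and plotting used pandas 2.3.3, numpy 2.4.6, matplotlib 3.10.9 and scipy 1.17.1 under Python 3.11.15, and the bin, step and change point procedures were tested on simulated data. The labels do not state whether replicates are separate cultures, so every p-value covers the spread among these libraries alone, and that spread may be technical.

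Regions were named by rule: both genes with the peaks overlapping them, the bin of each gene and its neighbours, the highest and lowest bin of each window, any bin that differed between treatments or antibodies, and the 3 bins on other chromosomes most like each gene's bin. Gene neighbours and the promoter came from RefSeq tables on GRCh38.p14, whose gene coordinates were not used with the hg19 lists. Alternatives were 4 bins on each side, all bins of the window, medians, bins of 250 kb and 1 Mb, SISSRs sites, scores of at least 100, lists of equal length, a pseudocount of 2 peaks, no filter, the replicate number as a block, each antibody alone and each library left out. The 1 Mb step, with 500 kb and 2 Mb as alternatives, and the change points were chosen after seeing the data. So were the limits of the segments and leaving out both etoposide replicate 1 libraries.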

Additional observations from a re-analysis of the deposited data

How the results depend on the processing

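Of 347 alternative values with a test, 308 kept their direction and their side of the threshold. With lists of equal length, too few bins around either gene held enough peaks for the 4.5 Mb step. It could not be computed there, and the FGFR1OP2 bin was not tested. The FGFR1 change point, at a median of −35.1 kb, was at −12.1 kb with 500 kb on each side and at −59.1 to −11.0 kb with each library left out. The step over 4.5 Mb at FGFR1 turned to −0.18 with 4 bins on each side. The 1 Mb step at FGFR1 lost its call with scores of at least 100 (−0.61), lists of equal length (−0.21), TOP2A alone (−0.61), TOP2B alone (−0.77) and 500 kb on each side (−0.68), and that at FGFR1OP2 with TOP2A alone (−1.51). Fits of 1 antibody hold fewer libraries and equal lists fewer peaks. For the rest the cause was not tested.

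Differences that never passed the test changed sign as follows. Etoposide minus vehicle for the 4.5 Mb step was 0.0041 (4 bins), 0.060 (250 kb bins) and 0.045 (pseudocount of 2) at FGFR1OP2, and 0.0042 (1 Mb bins) at FGFR1. For the 1 Mb step it was −0.37 at FGFR1OP2 (equal lists) and 0.058 at FGFR1 (500 kb), and for the FGFR1 bin with TOP2B −0.11 (250 kb bins). TOP2B minus TOP2A was 0.052 (scores of at least 100) for the 4.5 Mb step at FGFR1, 0.18 (scores of at least 100) and 0.045 (equal lists) for its 1 Mb step, and 0.062 (2 Mb on each side) and 0.089 (both etoposide replicate 1 libraries left out) at FGFR1OP2. The FGFR1 gene body difference was 0.070 per 10000 peaks with equal lists, and that of FGFR1OP2 was 0.054 without both etoposide replicate 1 libraries.

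The share of genome positions called for the 4.5 Mb step was 9.82% (4 bins), 11.4% (medians), 6.93% (scores of at least 100), 0.104% (equal lists), 5.29% (TOP2A alone) and 6.80% (TOP2B alone). For the 1 Mb step it was 4.87% (SISSRs), 0.901% (scores of at least 100), 0.00903% (equal lists), 0.171% (TOP2A alone), 0.644% (TOP2B alone), 0.289% (500 kb), 7.46% (2 Mb) and 4.53% (without both etoposide replicate 1 libraries). Equal lists left fewer positions to test, and 28.6% of the 7 usable bins of the chromosome 12 window were called.

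Where a group kept 1 library, it was assumed to vary like the other groups. Leaving out each library in turn gave −0.77 to −0.61 for the 1 Mb step at FGFR1 (adjusted p 0.00754 to 0.153, limma) and −1.66 to −1.50 at FGFR1OP2, and 8.83% to 33.6% (4.5 Mb) and 1.04% to 7.56% (1 Mb) of positions called. Etoposide minus vehicle then ran from −0.058 to 0.040 for the 4.5 Mb step at FGFR1OP2, from −0.29 to 0.030 for the 1 Mb step at FGFR1 and from −0.036 to 0.28 for the FGFR1 bin with TOP2B. It ran from −0.20 to 0.082 and from −0.060 to 0.026 per 10000 peaks for the FGFR1 and FGFR1OP2 bodies. TOP2B minus TOP2A for the 1 Mb step ran from −0.32 to 0.00067 at FGFR1 and from −0.30 to 0.021 at FGFR1OP2. Low counts and uneven list lengths limit these differences.

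Replicate numbers were shared by all groups. The correlation of same-numbered deviations was between −0.0971 and 0.0736, so the numbers were not used as pairs. Whether a number marks a shared culture or batch is not given in the sources used here. With the replicate block the 4.5 Mb steps were 0.72 and −0.72, the 1 Mb steps −0.69 and −1.58, and the share of positions called 24.0% and 2.01%, and no call of a gene changed.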
